A study of Mus musculus with 4 samples.

Results

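Integrins, syndecans, glypicans and discoidin domain receptors are the cell surface proteins through which a cell holds on to the extracellular matrix. They were represented by 88 of the 45101 probe sets of the array, which belonged to 36 genes. The probe sets were chosen by gene symbol, with earlier results of these data known. The genes were 16 integrin alpha chains, 8 integrin beta chains, 4 syndecans, 6 glypicans and 2 discoidin domain receptors. RNA came from the left hemi-diaphragm of the mouse and was taken from the synaptic region, the band of muscle that holds the nerve endings, or from the non-synaptic region, with 2 arrays for each region. The sources used here give no strain, age, genotype or treatment of the animals, and do not say whether the 2 arrays of a region stand for different animals. The titles carry a number, 1 or 2, which the arrays of both regions share.

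An integrin is a pair of 1 alpha and 1 beta chain, and the pair decides which matrix protein is bound. The alpha7 chain paired with beta1 is the main laminin-binding integrin of muscle fibres, which also hold on to laminin through dystroglycan, and this integrin is known to be concentrated at the neuromuscular synapse and at the tendon junction. Syndecans and glypicans are core proteins that carry heparan sulphate chains, which bind matrix proteins and growth factors. Syndecans span the membrane, whereas glypicans are held by a lipid anchor. The discoidin domain receptors are tyrosine kinases that are switched on by collagen.

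The deposited table holds linear intensities. Values below 158.891 were raised to that floor, and differences are on the log2 scale, synaptic minus non-synaptic, with the SE of limma's moderated fit. Median intensities were between 658 and 769 on the 4 arrays. Muscle fibre markers were measured for 7 of 7 genes with a median difference of 0.03. Of 4 markers of the synaptic region, Chrna1, Chrne and Ache had both synaptic arrays above both others, and their differences lay between 1.97 and 3.11, while Musk differed by 0.28 with overlapping regions. Among the receptors too, sharing a number brought arrays closer than sharing a region. The median absolute log2 difference over the receptor probe sets tested was 0.276 between the arrays numbered 1 and 0.168 between those numbered 2, against 0.547 within the synaptic and 0.430 within the non-synaptic region. Region differences are therefore also given within each number.

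The comparison asks whether these receptors differ in transcript level between muscle with and without synapses. Of the 88 probe sets, 64 passed the filter on dim signal, and they stood for 32 of the 36 genes. Calls were made by limma with Benjamini-Hochberg adjustment over all 26480 probe sets tested. Of the 64, 0 were called higher, against 0.00378% of all probe sets, and 0 lower, against 0.00755%. The 4 markers of the synaptic region gave 0 calls too, with a limma adjusted p of 0.198 for Chrna1 and 0.165 for Ache. Without adjustment, 1 of the 64 was higher and 0 were lower at a p under 0.05, where 0.653% of all probe sets were higher and 0.332% lower. The single probe set was that of Itgb8, which passed the filter only through its synaptic arrays. The 2 synaptic values exceeded the 2 non-synaptic values for 7 of the 64 (10.9%) and lay below them for 5 (7.81%), near the 9.89% and 9.98% of all probe sets. The log2 difference was smaller than 0.5 in size for 55 of the 64 (85.9%), against 91.9% of all probe sets. Over the 32 genes, each read from its brightest probe set, the median difference was 0.10, against 0.0048 over 12363 genes. The regions were apart on the higher side for 5 of the 32 genes (15.6%) and on the lower side for 2 (6.25%), against 10.6% and 9.85% of all genes. The 95% interval of the difference spanned 0 for 31 of the 32 genes. With 2 arrays per region, the smallest p an exact permutation test allows is 0.333, so none was run.

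**Figure D1:**
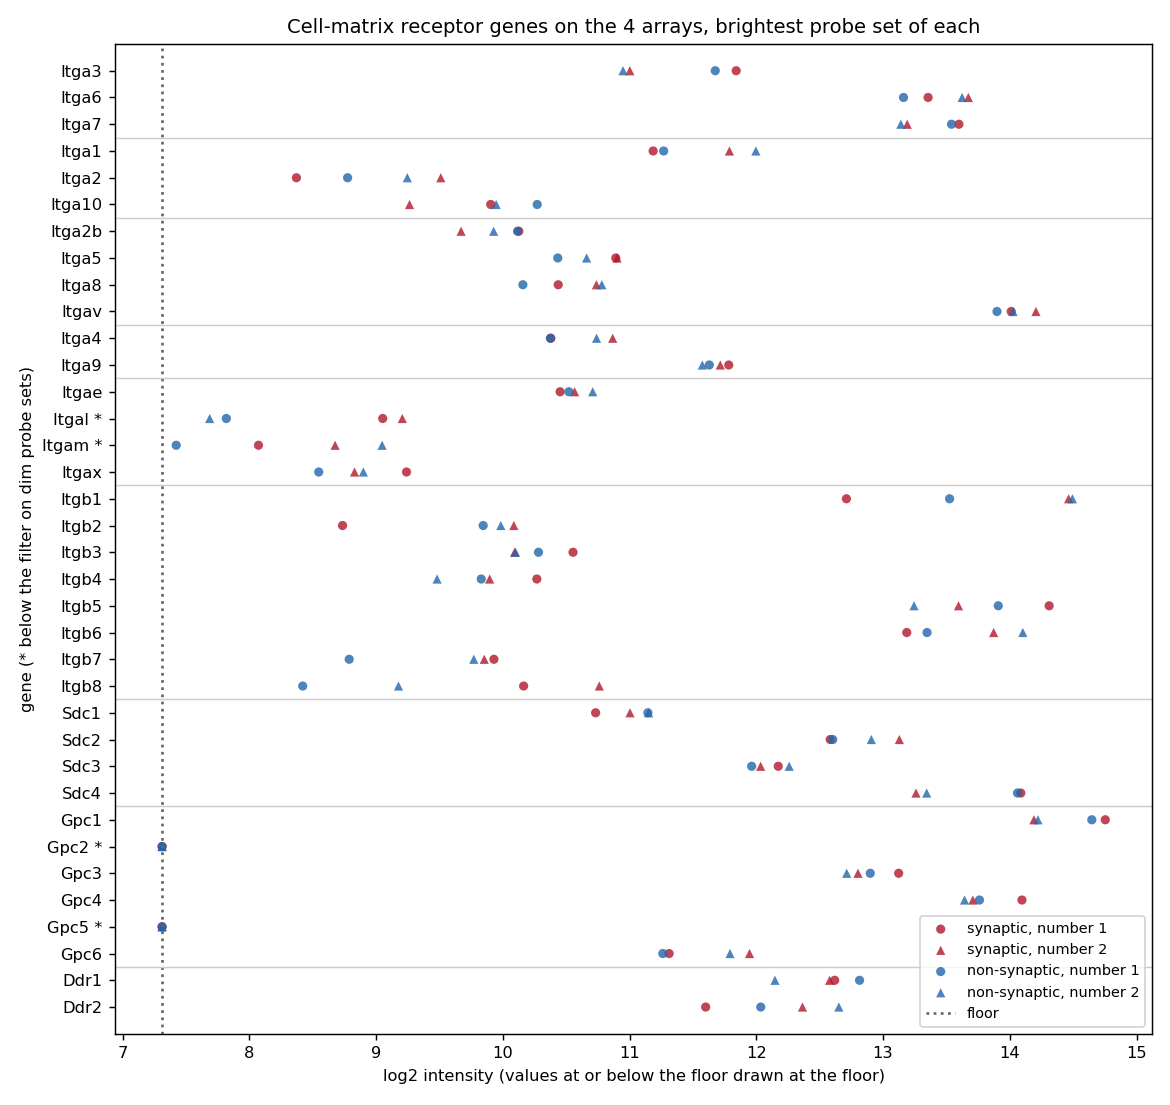
The log2 intensity of each of the 36 receptor genes on the 4 arrays is shown, with genes grouped by role, colours for the region and shapes for the array number. The 2 synaptic points of Itgb8 lie to the right of its 2 non-synaptic points, while for most genes the colours are mixed and circles and triangles separate.

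Among the 8 beta chains, all of which were measured, Itgb8 had the largest difference. Its product pairs with the alphav chain alone and is known for binding latent TGF-beta. The intensity of Itgb8 was 1148 and 1736 on the synaptic arrays and 343 and 579 on the non-synaptic arrays. Both synaptic arrays were thus high and both non-synaptic arrays low, and the lowest synaptic value stood above the highest non-synaptic value. The difference was 1.66 ± 0.41 (SE, n = 2 arrays per region), a 3.17-fold higher level with a 95% interval from 0.62 to 2.71 on the log2 scale. It had an unadjusted limma p of 0.00906 and did not pass over all probe sets (limma adjusted p = 1.0). The mean log2 value of Itgb8 was 8.80 on the non-synaptic arrays, below the filter at 8.87, and 10.46 on the synaptic arrays. Itgb8 was thus tested only because of its synaptic values, which limits what its p and interval can show. Within number 1 the difference was 1.74 and within number 2 it was 1.58. With each array left out in turn, Itgb8 was between 2.44-fold and 4.12-fold higher. In such bulk RNA, more cells of a type and more RNA per cell cannot be told apart.

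Schwann cells, the glia of the nerve, had higher marker levels on the same arrays. Of 12 markers 8 were measured, with a median difference of 1.27. All 8 had both synaptic arrays above both others, against 10.6% of all genes. Egr2 and Ncmap, with non-synaptic mean log2 values of 8.44 and 8.65, passed the filter at 8.87 only through the synaptic arrays. The summed intensity of the 8 was 109808 and 119542 on the synaptic arrays and 33966 and 35158 on the non-synaptic arrays. S100b lay below the filter. The part of Schwann cells in the difference of Itgb8 was not tested.

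Itgb8 and Sdc4 had the largest positive differences among the receptor probe sets tested, for Sdc4 on the dimmer of its 2 probe sets. The brighter probe set of Sdc4 differed by -0.03. For both genes the 250 bases before the RefSeq gene start are shown to give the regulatory sequence beside the values. They are read from the RefSeq promoter table of GRCm38.p6, 5′ to 3′ on the minus strand, for Itgb8 at chr12:119238277-119238526 and for Sdc4 at chr2:164443189-164443438. Capitals mark matches to CANNTG, the E-box bound by myogenic factors, and to CCGGAA, the N-box known from promoters of synaptic genes, on either strand, and no matches overlap in these windows.
Itgb8: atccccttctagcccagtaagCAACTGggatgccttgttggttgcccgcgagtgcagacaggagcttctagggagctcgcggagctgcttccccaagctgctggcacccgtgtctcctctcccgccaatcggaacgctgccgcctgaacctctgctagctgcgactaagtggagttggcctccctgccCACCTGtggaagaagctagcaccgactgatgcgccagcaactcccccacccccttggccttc
Sdc4: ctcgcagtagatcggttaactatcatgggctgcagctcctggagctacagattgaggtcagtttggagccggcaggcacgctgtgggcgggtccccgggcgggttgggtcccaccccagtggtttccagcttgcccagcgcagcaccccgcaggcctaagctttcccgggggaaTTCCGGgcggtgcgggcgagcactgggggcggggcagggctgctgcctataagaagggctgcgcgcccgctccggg
The Itgb8 window holds 2 matches to CANNTG and 0 to CCGGAA, and the Sdc4 window holds 1 match to CCGGAA, on the opposite strand, and 0 to CANNTG. Of 32851 windows of this length in the table, 66.2% hold CANNTG and 12% hold CCGGAA. Of the 36 receptor genes 26 were in the table with 31 windows, of which 61.3% hold CANNTG and 6.45% hold CCGGAA. A match is a description of the letters and not a binding site.

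**Figure D2:**
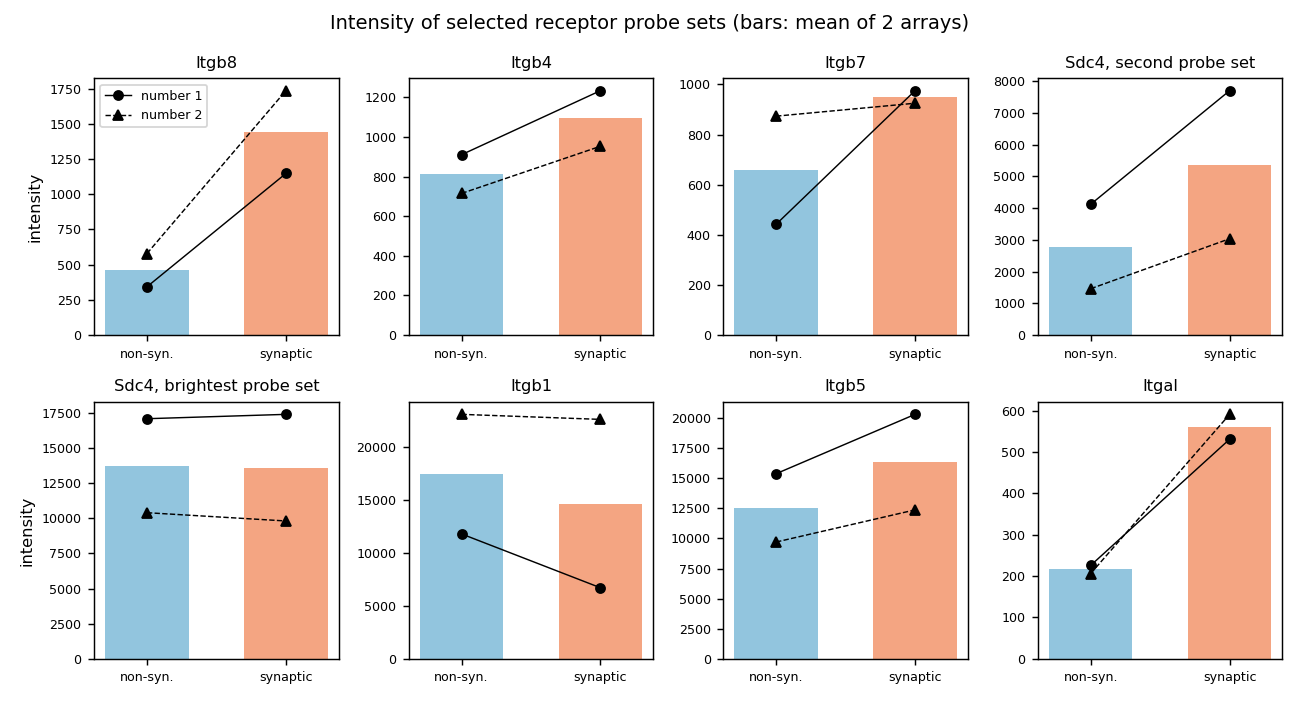
Linear intensities of 8 receptor probe sets are plotted by region, with bars for the mean of 2 arrays and lines joining arrays with the same number. Both lines run upward to the synaptic side for Itgb8, Itgb4, Itgb7, Itgb5, Itgal and the second probe set of Sdc4, while the number 1 and number 2 lines of Itgb1 lie far apart.

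Itgb4 and Itgb7 were the other beta chains whose regions did not overlap. Itgb4, which pairs with the alpha6 chain and is known from epithelia, Schwann cells and the perineurium, had intensities of 1233 and 953 on the synaptic and 910 and 715 on the non-synaptic arrays. Its values were higher in the synaptic region by 0.44 within number 1 and 0.41 within number 2. The pooled difference was 0.43 ± 0.31 and had an unadjusted limma p of 0.221. The perineurium is the sheath around nerve bundles, and its 2 measured markers had differences of 0.45 for Slc2a1 and 0.05 for Ntn4, while Cldn1 and Lypd2 lay below the filter. Their summed intensity was 7479 and 7620 on the synaptic and 6563 and 6867 on the non-synaptic arrays, and their part in the value of Itgb4, like that of Schwann cells, was not tested. Itgb7, a chain of lymphocyte integrins, had intensities of 975 and 925 on the synaptic and 442 and 874 on the non-synaptic arrays. The first non-synaptic array was low and the other 3 lay close together, so the difference was 1.14 within number 1 and 0.08 within number 2. Pooled, it was 0.61 ± 0.42 (unadjusted limma p of 0.20).

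Itgb1, the common partner of the muscle alpha chains, differed far more between array numbers than between regions. Its brightest probe set was at 6703 and 22592 on the synaptic arrays and at 11785 and 23067 on the non-synaptic arrays. Both arrays numbered 1 were low and both numbered 2 were high, so the regions overlapped. The difference was -0.42 ± 0.64, with an interval from -2.06 to 1.22. Within number 1 it was -0.81 and within number 2 it was -0.03, and the sign changed when the first synaptic or the second non-synaptic array was left out. The other 2 probe sets of Itgb1 above the filter gave -0.24 and -0.43.

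Itgb5, a partner of the alphav chain that binds vitronectin, was at 20311 and 12375 on the synaptic and 15378 and 9702 on the non-synaptic arrays. Here the arrays numbered 1 were the high ones, and within each number the synaptic array lay above the non-synaptic one, by 0.40 and 0.35. The pooled difference was 0.38 ± 0.34, and its 3 other probe sets gave from -0.06 to 0.27. Itgb6, a partner of the alphav chain known mainly from epithelia, was at 9324 and 14995 on the synaptic and 10417 and 17590 on the non-synaptic arrays, a difference of -0.20 ± 0.36. Its second probe set ran from 887 and 1774 on the arrays numbered 1 to 7443 and 7681 on those numbered 2. The regions of Itgb6 overlapped on both probe sets. Itgb3, the beta chain of the platelet and vascular receptors, differed by 0.13 ± 0.28. Itgb2, the beta chain of leukocyte integrins, differed by -0.50 ± 0.51, with 426 on the first synaptic array and between 920 and 1087 on the other 3.

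The laminin-binding alpha chains lay close to 0. Itga7, the alpha chain of the muscle laminin receptor, was at 12400 and 9346 on the synaptic and 11912 and 9027 on the non-synaptic arrays. Within each number its regions were near each other, with differences of 0.06 and 0.05, while the arrays numbered 1 were brighter in both regions. The pooled difference of Itga7 was 0.05 ± 0.24, with an interval from -0.56 to 0.67. Itga6, a chain of laminin receptors on many cell types, differed by 0.12 ± 0.24, and its second probe set by 0.12 too. Itga3 differed by 0.11 ± 0.40. A p that misses the threshold does not show equal levels, and the upper bounds of these 3 genes were 0.67, 0.73 and 1.13.

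Of the collagen-binding alpha chains, Itga10 had both synaptic arrays below both others. Its intensity was 959 and 615 on the synaptic and 1236 and 987 on the non-synaptic arrays. The first synaptic array lay just below the second non-synaptic one. The difference was -0.52 ± 0.35 (unadjusted limma p of 0.187), with -0.37 within number 1 and -0.68 within number 2. Itga1 differed by -0.15 ± 0.35 and Itga2 by -0.07 ± 0.51, and the regions overlapped for both. Of 9 fat cell markers 5 were measured, with a median of -2.57. Both synaptic arrays lay below both others for 4 of them, against 9.85% of all genes. Adipoq, which encodes adiponectin, differed by -5.43, Pck1 by -4.16 and Retn by -2.57, while the 2 brightest, Lpl and Fabp4, lay near 0 at 0.05 and -0.12. Both synaptic arrays of Pck1 were at the floor, so the size of its difference depends on the floor. The synaptic mean log2 values of Adipoq, Pck1 and Retn were 7.55, 7.31 and 8.61, below the filter at 8.87. These genes passed the filter only through the non-synaptic arrays. The median ran from -3.45 without the second synaptic array to -1.32 without the second non-synaptic array, and it was -1.69 without the first synaptic and -1.80 without the first non-synaptic array. It was -0.12 with the filter at the 60th percentile. The summed intensity of the 5 markers was 254400 and 229289 on the synaptic and 254538 and 265022 on the non-synaptic arrays. Lep and Cidec lay below the filter. The part of fat cells in the lower values of Itga10, Sdc1 and Ddr2 was not tested.

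The alpha chains that recognise the RGD sequence, as in fibronectin and vitronectin, include Itgav, the sole partner of the Itgb8 product. Itgav was at 16506 and 18896 on the synaptic and 15271 and 16672 on the non-synaptic arrays. Each synaptic array lay above its non-synaptic counterpart, by 0.11 within number 1 and 0.18 within number 2, but the regions overlapped. The difference of Itgav was 0.15 ± 0.17, with an interval from -0.29 to 0.58, whereas that of Itgb8 was 1.66. Itga5, the alpha chain of the fibronectin receptor, was at 1899 and 1913 on the synaptic and 1383 and 1619 on the non-synaptic arrays. Its regions did not overlap, and the difference was 0.35 ± 0.23 (unadjusted limma p of 0.190). A second probe set of Itga5 gave -0.88 ± 0.99, with 1 synaptic array at the floor. Its synaptic mean log2 value was 8.78, so it passed the filter at 8.87 only through the non-synaptic arrays. Itga8 differed by 0.12 ± 0.31 and Itga2b, the platelet alpha chain, by -0.12 ± 0.30.

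Itga9, which binds tenascin-C and other matrix proteins, was at 3522 and 3363 on the synaptic and 3167 and 3049 on the non-synaptic arrays. All 4 arrays lay close together, with the synaptic ones slightly higher, by 0.15 within number 1 and 0.14 within number 2. The pooled difference was 0.15 ± 0.20, and a second probe set gave -0.41 ± 0.69. Itga4, known from leukocytes and developing muscle, differed by 0.07 ± 0.29.

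Of the leukocyte alpha chains 2 of 4 passed the filter. Itgae differed by -0.11 ± 0.24 and Itgax by 0.31 ± 0.38, and the regions overlapped for both. The mean log2 value of Itgax was 8.72 on the non-synaptic and 9.04 on the synaptic arrays. With the filter at 8.87, Itgax was thus tested only because of its synaptic values. A second, dimmer probe set of Itgae went the other way, by 0.32 ± 0.34, with 0.35 within number 1 and 0.28 within number 2. Itgal, the alpha chain of the T cell adhesion receptor LFA-1, lay below the filter with 531 and 591 on the synaptic and 226 and 206 on the non-synaptic arrays. Both synaptic arrays were thus high and both non-synaptic arrays near the floor, a log2 difference of 1.38, or 2.60-fold. With no filter, where Itgal was tested, limma gave it an adjusted p of 0.518. With the floor at the 40th percentile the difference was 0.26 (limma adjusted p of 1.0), since the raised floor lies above both non-synaptic values. Its second probe set was at 74.5 and 669 on the synaptic and 116 and 270 on the non-synaptic arrays, where the regions overlapped. Itgam, known from myeloid cells, was at 269 and 409 on the synaptic and 172 and 529 on the non-synaptic arrays. Of 8 lymphocyte markers 2 were measured, Ptprc with a difference of -0.50 and Cd8a with 0.08, while Cd3e, Cd3g, Cd79a, Cd79b and Cd2 lay below the filter. The summed intensity of the 2 was 2302 and 2733 on the synaptic and 2667 and 3159 on the non-synaptic arrays. The sum was lower on the synaptic array within each number, but the 2 markers went opposite ways. Ptprc differed by -0.67 within number 1 and -0.33 within number 2, and Cd8a by 0.14 and 0.03. The part of lymphocytes in the values of Itgal and Itgb7 was not tested.

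**Figure D3:**
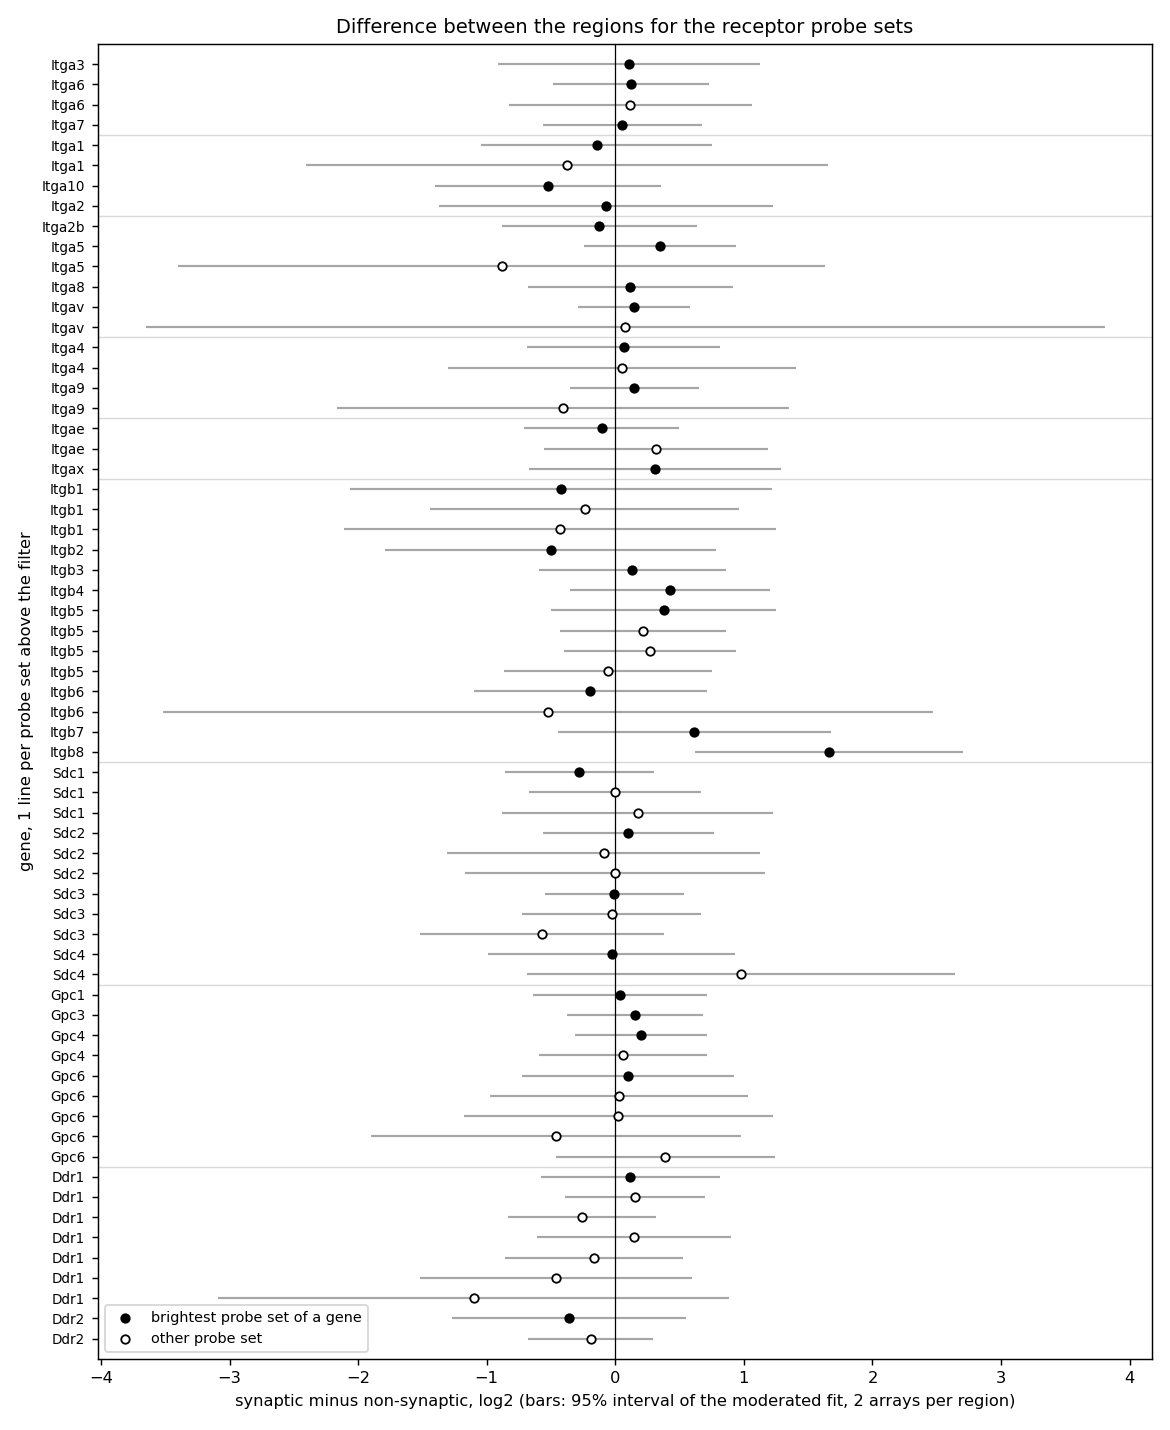
The log2 difference between the regions is plotted for the 64 receptor probe sets above the filter, with bars for the 95% interval of the moderated fit. The interval of Itgb8, from 0.62 to 2.71, lies wholly above 0, and those of the brightest probe sets of the other 31 genes span it. Itgb8 passed the filter only through its synaptic arrays, which limits what its interval can show.

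The 4 syndecans were all measured, and their median difference was -0.02. Sdc4, the syndecan of focal adhesions, gave different values on its 2 probe sets. The brighter one was at 17394 and 9808 on the synaptic and 17084 and 10397 on the non-synaptic arrays, a difference of -0.03 ± 0.38. The other was at 7700 and 3036 on the synaptic and 4120 and 1461 on the non-synaptic arrays. On this second probe set each synaptic array was higher than its non-synaptic counterpart, by 0.90 within number 1 and 1.05 within number 2, but the regions overlapped because the arrays numbered 1 were brighter in both. The pooled difference was 0.98 ± 0.65, a 1.97-fold higher level (unadjusted limma p of 0.193). Leaving out each array gave from 1.17-fold to 3.31-fold. Which of the 2 probe sets follows the Sdc4 transcript was not tested.

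Sdc1, known from epithelia, was at 1701 and 2053 on the synaptic and 2264 and 2273 on the non-synaptic arrays. Its synaptic arrays lay below both others, by -0.28 ± 0.23, while its 2 other probe sets above the filter gave 0.17 and -0.0017. Sdc2, known from fibroblasts and other mesenchymal cells, differed by 0.10 ± 0.26. Sdc3, known from nerve tissue and muscle satellite cells, was at 4617 and 4193 on the synaptic and 3992 and 4902 on the non-synaptic arrays, a difference of -0.0078 ± 0.21. Its least bright probe set gave -0.57 ± 0.37, with both synaptic arrays below both others.

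Of the 6 glypicans 4 were measured. On the brightest probe set of each of the 4, the difference was small and positive, between 0.04 and 0.20, with overlapping regions. Gpc1 was at 27610 and 18688 on the synaptic and 25646 and 19101 on the non-synaptic arrays, and differed by 0.04 ± 0.27. The 2 arrays numbered 1 were the bright ones in both regions. Gpc3, a regulator of growth whose loss causes overgrowth, differed by 0.16 ± 0.21. Gpc4, known to organise synapses in the brain, was at 17504 and 13384 on the synaptic and 13874 and 12789 on the non-synaptic arrays. Gpc4 differed by 0.20 ± 0.20, and only its first synaptic array stood apart from the other 3. Gpc6, a relative of Gpc4, differed by 0.10 ± 0.32, and its 5 probe sets ran from -0.46 to 0.39. The probe set at 0.39 had both synaptic arrays above both others. The sign of Gpc1, Gpc3 and Gpc6 changed when some single array was left out. Gpc2 and Gpc5 were at the floor on all 4 arrays.

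Ddr1, known mainly from epithelia and glia, was read by 8 probe sets, 7 of them above the filter. Its brightest was at 6287 and 6115 on the synaptic and 7202 and 4535 on the non-synaptic arrays, with a difference of 0.12 ± 0.27. The synaptic values lay between the non-synaptic ones, and the 7 probe sets ran from -1.10 to 0.15. The probe set at 0.15 had both synaptic arrays above both others, while another, at -0.26, had both below. The lowest of the 7, with a difference of -1.10 ± 0.78, had 1 synaptic array at the floor. Its synaptic mean log2 value was 8.38, so it passed the filter at 8.87 only through the non-synaptic arrays. Ddr2, the collagen receptor of fibroblasts, was at 3104 and 5271 on the synaptic and 4196 and 6432 on the non-synaptic arrays, a difference of -0.36 ± 0.36. Its second probe set was at 3462 and 3447 on the synaptic and 3883 and 4012 on the non-synaptic arrays. There both synaptic arrays lay below both others, by -0.19 ± 0.19.

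Of the 24 probe sets below the filter, 19 belonged to genes with another probe set above it. Their intensities ran from 14.5 to 763, and 18 of them had at least 1 array at the floor. The filter was set on the mean log2 value, at 8.87. The probe set just inside it was that of Itgax at 8.88, and the one just outside was of Ddr1 at 8.85. For 2 of the 24 the regions did not overlap, the brighter probe set of Itgal and a dim one of Itgav at 232 and 219 against 380 and 438.

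**Figure D4:**
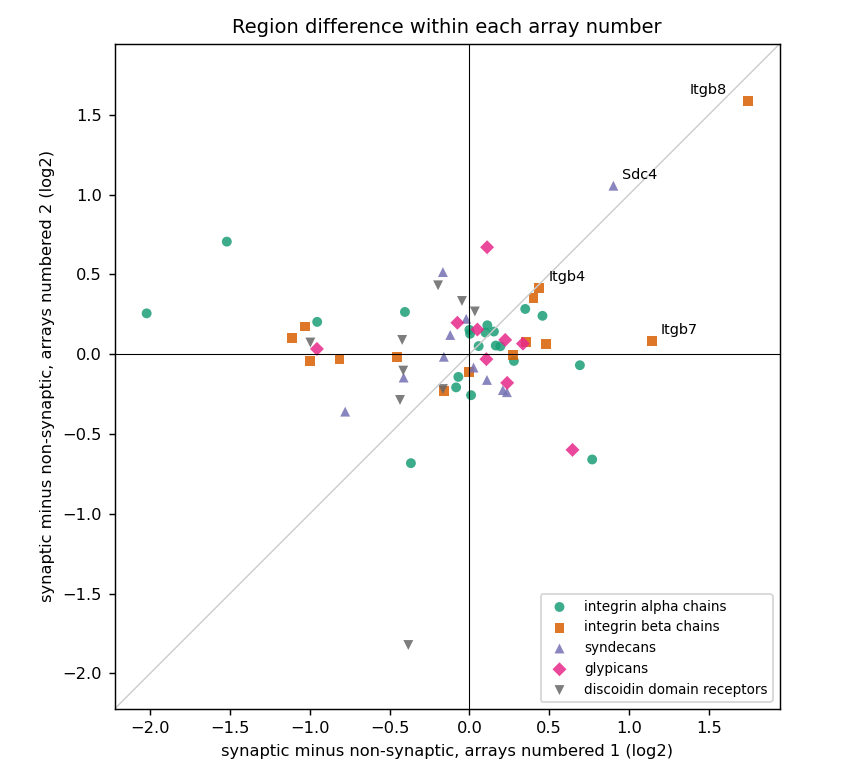
The region difference within arrays numbered 1 is set against that within arrays numbered 2 for the 64 receptor probe sets above the filter, both on the log2 scale. Itgb8 at 1.74 and 1.58 and the second probe set of Sdc4 at 0.90 and 1.05 lie along the diagonal, and many others spread along the horizontal axis.

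Across the receptors the array number carried a larger difference than the region. The mean difference between numbers was larger in size than the difference between regions for 78.1% of the 64 probe sets and for 71.7% of all probe sets. The median sizes among the 64 were 0.48 for the number and 0.16 for the region, against 0.29 and 0.14 over all probe sets. In both regions 34 of the 64 were brighter on the array numbered 2, as for Itgb1 and Itgb6, and 21 on the array numbered 1, as for Itgb5, Sdc4 and Gpc1. Of all probe sets 38.8% were brighter in this way on the arrays numbered 2 and 33.5% on those numbered 1. The remaining 9 went opposite ways. The region difference had the same sign within both numbers for 56.2% of the 64 and for 51.2% of all probe sets.

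The genes that work with these receptors gave 0 calls by limma over all probe sets. Of 22 matrix ligands 21 were measured, with a median of 0.0067, 0 of them at an unadjusted p under 0.05 and 0 with regions apart. Fibronectin, encoded by Fn1, differed by -0.34 ± 0.34, and Npnt, which encodes the alpha8 ligand nephronectin, by 0.22 ± 0.29. Of 25 cytoplasmic linkers 21 were measured, with a median of -0.05 and 0 at an unadjusted p under 0.05. Their regions were apart in 4 genes on the higher and 4 on the lower side, where the shares over all genes were 10.6% and 9.85%. Among these, the tyrosine kinase Src was at 959 and 1112 on the synaptic and 700 and 380 on the non-synaptic arrays, a difference of 1.0 ± 0.40 (unadjusted limma p of 0.0542). Parva, an adaptor bound to integrin-linked kinase, differed by 0.33 ± 0.21. Itgb1bp2, melusin, a muscle protein that binds the beta1 tail, differed by -0.12 ± 0.14.

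Of 20 enzymes that build or trim heparan sulphate, the sugar chain of syndecans and glypicans, 15 were measured, with a median of -0.03. Their regions were apart for 3 of the 15 on the higher and 4 on the lower side, against 10.6% and 9.85% of all genes. At an unadjusted limma p under 0.05, 1 was higher, against 0.825% of all genes, and 0 were lower. This was Hs6st2, a sulphotransferase, at 2919 and 4481 on the synaptic and 1096 and 1645 on the non-synaptic arrays. Both synaptic arrays were high, by 1.41 within number 1 and 1.45 within number 2, and the pooled difference was 1.43 ± 0.34 (unadjusted limma p of 0.00760, limma adjusted p = 1.0). Ext2, a polymerase of the chain, differed by -0.40 ± 0.19 with both synaptic arrays below both others. The Schwann cell markers were higher on the same arrays as Hs6st2 and Src, and their part in these values was not tested.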

How the data were processed

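Transcript levels were measured on 4 arrays, and the deposited table gives each probe set's linear intensity. How the authors scanned, summarised and scaled the arrays is not given in the sources used here. On each array 2500 was the 2% trimmed mean, so the deposited scaling was kept. Values were floored at the 20th percentile of all intensities and log2 was taken. Probe sets with a mean log2 value under the 40th percentile, 8.87, and 64 control probe sets were left out. The comparison used limma 3.58.1 in R 4.3.3 (lmFit, eBayes with an intensity trend, 2-sided, Benjamini-Hochberg adjustment over all probe sets tested, threshold 0.05), with 2 residual and 3.16 prior degrees of freedom. P-values measure only the spread between these arrays, which may be technical, and only 4 arrays bound the precision.

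Gene names came from the platform annotation, updated through Entrez identifiers with RefSeq tables of GRCm38.p6, and all 88 members matched. A gene was read from its brightest probe set. Members were probe sets with 1 symbol of the form Itga or Itgb and a number (Itga2b included) or a single letter, Sdc1 to Sdc4, Gpc1 to Gpc6, Ddr1 and Ddr2. All member genes are named, and of each companion list some with the smallest p or highest mean. The members and lists were chosen with earlier results of these data known. Lists of myeloid cell, fibroblast, endothelial cell, smooth muscle, satellite cell, adipocyte, platelet and mesothelium markers were described in the same way. Differences within an array number were computed from the 2 arrays that carry it. Alternatives were median centring, quantile normalization, changed filters and floors, no trend, the array number as a block and leaving out each array. The fit was tested on simulated data.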

Additional observations from a re-analysis of the deposited data

How the results depend on the processing

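Over all 26480 probe sets 1 was called higher and 2 lower. The number higher was 6 with median centring, 3 with the filter at the 60th percentile and 0 when unfiltered, with a floor at the 40th percentile or with no intensity trend. The lower count became 0 with no filter, with the raised floor and without the trend. Without 1 of the arrays, between 0 and 6 were higher and between 0 and 5 lower, with 0 in both directions without either non-synaptic array. Of the receptor probe sets, limma called 0 in these settings, with from 0 to 3 higher and from 0 to 10 lower at an unadjusted p under 0.05. With the array number as a replicate block, which the labels do not state to be a pairing, the counts were 56 higher and 18 lower over all probe sets and 1 higher and 0 lower among the receptors. That 1 was the second probe set of Sdc4 (limma adjusted p = 0.0197 with the block), and Itgb8 had an adjusted p of 0.0825 there. Over the alternatives the adjusted p of Itgb8 ran from 0.0825 to 1.0. With the filter at the 60th percentile Itgb8 was below it, and 3 receptor probe sets were apart on the higher and 3 on the lower side. The 2 calls among genes of the companion lists, Mbp and Adipoq, became 0 with no filter, the raised floor or no trend, 11 with the block and from 0 to 4 without each array. The cause was not tested. The median of the receptor genes stayed between 0.03 and 0.13. Of the 32 receptor genes 20 changed sign in some setting and 12 did not, 9 of them higher and 3 lower. Dim probe sets near the floor limit what can be measured of Itgal, Itgam, Gpc2 and Gpc5.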

Other observations

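Several receptor genes had probe sets that differed from each other. On its second probe set Itgav was at 114 and 1577 on the synaptic and 66.0 and 1419 on the non-synaptic arrays. The arrays numbered 1 were at the floor in both regions, while its brightest probe set stayed between 15271 and 18896. A dim probe set of Itga8 went the same way, with 45.8 and 54.4 on the arrays numbered 1 and 763 and 592 on those numbered 2, while the brighter one stayed between 1143 and 1759. The third probe set of Itgb1 was at 2087 on the first synaptic array and at 4260 to 7836 on the other 3.

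Markers of the other cell types that carry such receptors had medians of -0.10 for endothelial cells, -0.04 for fibroblasts, -0.06 for macrophages and myeloid cells, -0.16 for smooth muscle and pericytes, -0.11 for satellite cells, -0.07 for mesothelium and -0.10 for platelets. With each array left out in turn, the medians ran from -0.28 to 0.11 for endothelial cells, from -0.33 to 0.11 for fibroblasts, from -0.12 to 0.15 for satellite cells, from -0.28 to 0.09 for mesothelium and from -0.25 to 0.06 for platelets, so these 5 changed sign. They stayed below 0 for myeloid cells, between -0.10 and -0.01, and for smooth muscle, between -0.20 and -0.12. Of the 6 smooth muscle markers measured 3 had both synaptic arrays below both others, against 9.85% of all genes, and Myh11, the smooth muscle myosin heavy chain, differed by -0.77 ± 0.30 (unadjusted limma p of 0.0476, limma adjusted p = 1.0).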
